A study of Homo sapiens with 12 samples.

Results

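The genes described are 10 members of the BCL2 family, a group of related proteins that decide whether a cell keeps its mitochondria intact or dies by apoptosis. They were chosen by name and by no cutoff on a measured value, though earlier results of these data were known. They are 5 pro-survival genes (BCL2, BCL2L1, BCL2L2, MCL1 and BCL2A1), 4 BH3-only genes (BCL2L11, BMF, BAD and BID) and 1 effector gene (BAK1). All 10 were present among the 26499 genes counted, and all 10 were among the 15506 genes with enough reads to be tested. BCL2A1 was one of these, with only 42 reads over the resistant and 17 over the sensitive A375 libraries. Messenger RNA was sequenced from A375 and SKMel28, both of them long-established lines of human melanoma, in 4 groups of 3 libraries: resistant A375, sensitive A375, resistant SKMel28 and sensitive SKMel28. The resistance is to vemurafenib, a drug against the mutant form of BRAF, the kinase behind much of melanoma. The medium of resistant cells held 1 µmol/L vemurafenib, that of sensitive cells no drug that the labels name, and all cells had DMEM with 10% FBS. A change that came with resistance and one caused by the drug in the dish therefore cannot be told apart here. The series asks about the IGF1 pathway in resistance to BRAF and MEK therapies. The labels give 1 resistant derivative per line, without its clonality. They do not tell if replicate libraries are separate cultures, and p-values then measure only how far these libraries spread.

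Pro-survival BCL2 proteins bind and hold back the effectors BAX and BAK1, which otherwise form pores in the outer mitochondrial membrane. BH3-only proteins carry a short helix, the BH3 motif, that fits into a groove of the pro-survival proteins and so releases the effectors. In melanoma with mutant BRAF, signalling through ERK is known to mark the BH3-only protein BIM (encoded by BCL2L11) for destruction and to restrain BMF, and the lineage factor MITF is known to act on BCL2 and BCL2A1.

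The coding sequence of the BH3 motif is shown for the genes on the death side, because this motif is what the BH3-only genes have in common. It was found in the longest open reading frame of the GENCODE release 29 transcripts by the pattern leucine, 3 residues of any kind, a small residue (glycine, alanine or serine) and aspartate. Capitals mark these 6 codons, from the conserved leucine to the conserved aspartate.

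BCL2L11: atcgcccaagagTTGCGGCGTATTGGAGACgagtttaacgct

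BMF: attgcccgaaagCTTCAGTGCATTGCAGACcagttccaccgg

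BAD: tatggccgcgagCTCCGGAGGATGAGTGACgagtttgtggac

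BID: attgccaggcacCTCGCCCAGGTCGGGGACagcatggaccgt

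BAK1: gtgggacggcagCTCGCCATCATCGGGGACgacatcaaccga

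The leucine is residue 152 of 198 in the BCL2L11 reading frame, 137 of 184 in BMF, 114 of 168 in BAD, 136 of 241 in BID and 78 of 211 in BAK1. The BID reading frame matched the pattern at a second place, which is not shown. In the GRCh38 build the BH3-only genes lie at chr2:111119378-111168447 on the plus strand (BCL2L11), chr15:40087890-40108892 (BMF), chr11:64269830-64284704 (BAD) and chr22:17734138-17774770 (BID), the last 3 on the minus strand. BAK1 lies at chr6:33572547-33580293 on the minus strand. The pro-survival genes lie at chr18:63123346-63320128 (BCL2), chr20:31664452-31723989 (BCL2L1), chr1:150574551-150579738 (MCL1) and chr15:79960889-79971446 (BCL2A1), all on the minus strand, and at chr14:23298790-23311759 on the plus strand (BCL2L2). GENCODE annotates all 10 as protein-coding genes.

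Depth was similar in all groups. Between 28496518 and 37721363 reads were assigned to genes in a library, so that 1 CPM (the usual depth-scaled count, here after scaling each library by TMM) stood for 29.8 to 39.7 reads. Log2 CPM correlated at 0.991 to 0.995 between libraries of a group. The melanocyte lineage list checked the label: its 8 markers summed to 10924 to 11077 CPM in resistant SKMel28 libraries and to 7268 to 7708 CPM in sensitive ones, all 8 above 1 CPM. In A375 they summed to 31.3 to 33.7 CPM in resistant libraries, with MITF alone above 1 CPM, and to 373 to 383 CPM in sensitive ones, where 3 markers passed 1 CPM. Tyrosinase (TYR) had no read in any A375 library. The pigment genes MLANA, PMEL, TYR, TYRP1 and DCT were each below 1 CPM on average in both A375 groups, while SOX10 averaged 0.138 CPM in resistant and 325 CPM in sensitive A375 cells. Of other cell types, fibroblast markers summed to at most 26.9 CPM and endothelial markers to at most 6.70 CPM in any library. Keratinocyte markers summed to 28.5 to 124 CPM, with KRT1 at 0 reads in all libraries. Most of that sum was KRT10, which averaged 88.7 CPM in resistant and 95.9 CPM in sensitive A375 cells. In SKMel28 KRT10 averaged 30.8 CPM in resistant and 68.2 CPM in sensitive cells. KRT14 averaged 25.5 CPM in sensitive A375 cells and 0.499 CPM in resistant ones. Leukocyte markers summed to 38 to 764 CPM, with CD3E at 0 reads in all libraries and CD68 alone at 761 CPM in resistant SKMel28 cells.

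In resistant A375 cells 5 of the 10 genes passed the test. MCL1 rose 1.16-fold and BMF 1.92-fold, BCL2 fell 1.59-fold, and BCL2L1, BCL2L2, BAD, BID and BAK1 did not pass. BCL2L11 (1.15-fold higher) and BCL2A1 (2.44-fold higher) were also called, but each call was lost when 1 library was left out, and BCL2A1 rested on 2 to 20 reads a library. In bulk libraries such as these, fewer cells with a transcript and less of it per cell cannot be told apart. Of all 15506 genes tested, resistant A375 cells had 25% called higher and 26.3% called lower (edgeR quasi-likelihood test, Benjamini-Hochberg adjusted p below 0.05), so 4 genes called higher and 1 lower out of 10 is read against that background.

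In resistant SKMel28 cells 7 of the 10 passed the test. BCL2, BCL2L2 and BMF rose, with BCL2 at 2.64-fold and BMF at 2.67-fold higher. MCL1, BCL2L11 and BID fell, with BID at 3.83-fold lower, and BCL2A1 was called 1.13-fold lower, a call lost when 1 library was left out. Of the 15506 genes, 34.2% passed as higher and 35.8% as lower in resistant SKMel28 cells, so the 3 rises and 4 falls stand close to the share of all genes. BMF was the only one of the 10 called in the same direction in both lines. BCL2 and MCL1 were called in opposite directions. So were BCL2A1 and BCL2L11, with the calls named above that 1 library decided. The shares of all genes called in the same or in opposite directions were not counted, so these directions are a description only.

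**Figure D1:**
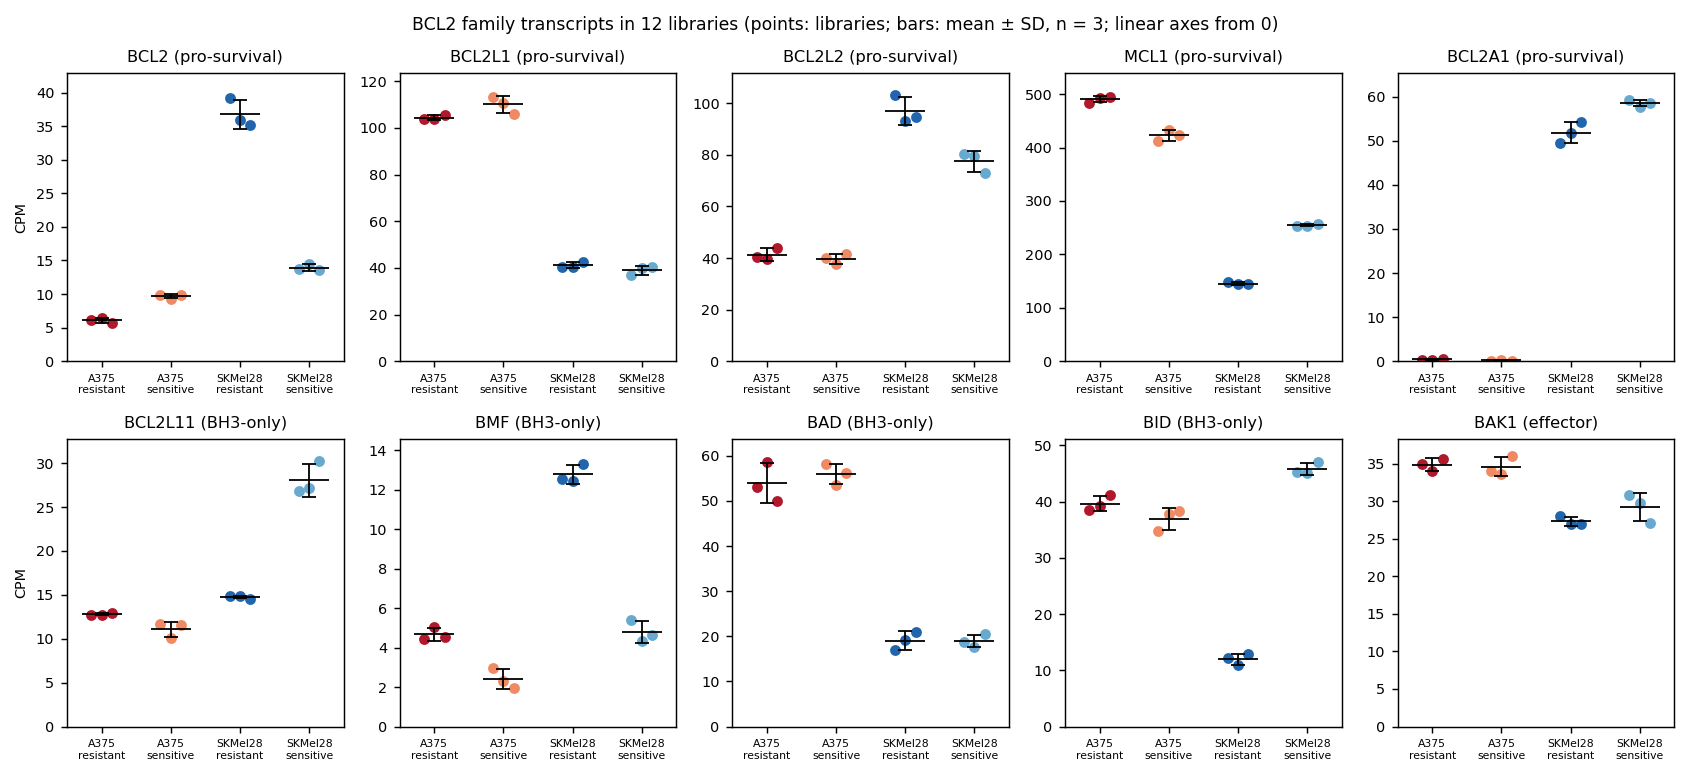
CPM (linear axes from 0) of each gene in the 12 libraries, 1 panel per gene; points are libraries and bars the mean ± SD of 3. BCL2 reached 35.2 to 39.2 CPM in resistant SKMel28 libraries and at most 14.5 CPM elsewhere, and BCL2A1 was near 0 in all 6 A375 libraries.

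Among the pro-survival genes, BCL2 itself, the founding member, moved in opposite directions in the 2 lines. Resistant A375 libraries had 6.07, 6.48 and 5.72 CPM, against 9.93, 9.30 and 9.84 CPM in sensitive A375 libraries. Resistant SKMel28 libraries had 39.2, 35.8 and 35.2 CPM, against 13.7, 14.5 and 13.6 CPM in sensitive SKMel28 libraries. Resistant and sensitive libraries did not overlap in either line. BCL2 fell by 0.67 ± 0.10 on the log2 scale in A375 (adjusted p = 9.28e-08) and rose by 1.40 ± 0.08 in SKMel28 (adjusted p = 5.12e-20, edgeR, ± SE throughout for fold changes). The 2 changes differed by -2.07 (A375 minus SKMel28, adjusted p = 7.27e-19).

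MCL1 encodes a short-lived pro-survival protein and had the most reads of the 10 genes in every library. Its level was 484, 493 and 494 CPM in resistant A375 libraries, against 413, 433 and 423 CPM in sensitive ones. In SKMel28 it was 148, 144 and 144 CPM in resistant libraries, against 253, 254 and 257 CPM in sensitive ones. The groups were separate in both lines, and the direction was the reverse of that of BCL2 in each. MCL1 rose by 0.21 ± 0.03 in A375 (adjusted p = 2.60e-07) and fell by 0.81 ± 0.03 in SKMel28 (adjusted p = 1.15e-24), a difference between the lines of 1.02 (adjusted p = 5.28e-23).

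BCL2A1, which encodes the pro-survival protein A1/BFL1, was a gene of SKMel28 in these data. Resistant SKMel28 libraries had 49.5, 51.7 and 54.2 CPM, against 59.2, 57.8 and 58.7 CPM in sensitive ones, without overlap. Resistant A375 libraries held 12, 10 and 20 reads, against 2, 11 and 4 reads in sensitive A375 libraries. On the CPM scale these were 0.413 ± 0.168 and 0.173 ± 0.147 (SD, n = 3 each), and the 2 A375 groups overlapped. The fall in SKMel28 was small, -0.18 ± 0.07 (adjusted p = 0.0199), and the A375 value was 1.29 ± 0.43 (adjusted p = 0.0104). Neither call was held by every subset of libraries. Without resistant A375 replicate 3 the A375 value was 0.95 (adjusted p = 0.0994), without sensitive A375 replicate 1 it was 0.77 (adjusted p = 0.145) and without sensitive A375 replicate 2 it was 2.20. The SKMel28 call was lost without resistant replicate 1, with an adjusted p of 0.0968. It was also lost without resistant replicate 2, at 0.0586, and without sensitive replicate 1, at 0.0606.

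BCL2L2, which encodes BCL-W, stood at 103, 93.2 and 94.6 CPM in resistant SKMel28 libraries, against 80.4, 79.4 and 72.8 CPM in sensitive ones. The groups did not overlap and the rise was 0.32 ± 0.05 (adjusted p = 3.50e-07). In A375 its level was 40.3, 39.5 and 44.1 CPM in resistant libraries, against 39.9, 37.7 and 41.5 CPM in sensitive ones. These overlapped, and the 95% interval of the A375 log2 fold change ran from -0.06 to 0.17 (adjusted p = 0.427). BCL2L2-PABPN1, on the same strand, shares 19.4% of the BCL2L2 exon bases and averaged 0.0714 CPM in resistant and 0.122 CPM in sensitive SKMel28 libraries. PPP1R3E, on the other strand, shares 4.92% of them. Its log2 fold changes were -0.03 in A375 and 0.47 in SKMel28, and the part of shared reads was not tested.

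BCL2L1, which encodes BCL-XL, did not pass the test within either line. Resistant A375 libraries had 104, 103.7 and 105.5 CPM, against 113, 110.9 and 106 CPM in sensitive A375 libraries. Resistant SKMel28 libraries had 40.4, 40.5 and 42.7 CPM, against 36.8, 39.9 and 40.4 CPM in sensitive SKMel28 libraries. The groups were separate by a narrow margin in A375 and overlapped in SKMel28. The log2 fold change was -0.08 in A375 (95% interval -0.17 to 0.01, adjusted p = 0.139) and 0.08 in SKMel28 (95% interval -0.02 to 0.18, adjusted p = 0.163). The difference between these 2 values, -0.16, passed the threshold (adjusted p = 0.0387), but 12 of 18 alternative settings lost that call, every other scaling among them (adjusted p from 0.0152 to 0.228). ABALON, an antisense RNA, covers 43.0% of the BCL2L1 exon bases and averaged 10.8, 11.7, 2.05 and 2.94 CPM in resistant A375, sensitive A375, resistant SKMel28 and sensitive SKMel28 libraries. Reads on the shared bases cannot be assigned to one strand, because the counting was unstranded by the names of the deposited files.

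Of the BH3-only genes, BMF, whose protein is known to be held by the cytoskeleton and released under stress, rose in both lines. Its level was 4.44, 5.05 and 4.51 CPM in resistant A375 libraries, against 2.95, 2.29 and 1.96 CPM in sensitive ones. In SKMel28 it was 12.6, 12.5 and 13.3 CPM in resistant libraries, against 5.40, 4.33 and 4.63 CPM in sensitive ones. Every resistant library was above every sensitive library of its line. The log2 rise was 0.94 ± 0.15 in A375 (adjusted p = 1.51e-06) and 1.42 ± 0.13 in SKMel28 (adjusted p = 4.72e-13). Whether the rise was larger in SKMel28 depended on the setting. The difference was -0.48 (adjusted p = 0.0396), 12 of 18 alternatives lost the call (adjusted p from 0.0138 to 0.253), and without sensitive A375 replicate 1 the value was -0.29.

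BCL2L11, which encodes BIM, the BH3-only protein that binds all pro-survival members, went the other way in SKMel28. Resistant SKMel28 libraries had 14.8, 14.8 and 14.6 CPM, against 26.8, 27.2 and 30.2 CPM in sensitive ones. Resistant A375 libraries had 12.7, 12.7 and 13 CPM, against 11.6, 10.1 and 11.5 CPM in sensitive ones. BCL2L11 thus fell by 0.93 ± 0.08 in SKMel28 (adjusted p = 6.04e-14) and was 0.21 ± 0.09 higher in resistant A375 cells (adjusted p = 0.0419). The A375 call was lost without sensitive A375 replicate 2 (0.14, adjusted p = 0.230) and when the 6 A375 libraries were fitted alone (adjusted p = 0.0545). The difference between the lines, 1.14, had an adjusted p of 1.99e-11. MIR4435-2HG, a non-coding RNA on the other strand, shares 10.9% of the BCL2L11 exon bases. Its log2 fold changes were 0.23 in A375 and -0.55 in SKMel28, the same directions as those of BCL2L11, and the part of shared reads was not tested.

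BID, the BH3-only protein that caspase 8 cuts to link death receptors to mitochondria, had the widest change of the 10 genes within a line. Resistant SKMel28 libraries had 12.1, 10.9 and 12.9 CPM, against 45.2, 45.1 and 47.0 CPM in sensitive SKMel28 libraries. Resistant A375 libraries had 38.6, 39.2 and 41.1 CPM, against 34.7, 37.8 and 38.4 CPM in sensitive A375 libraries. The 3 resistant SKMel28 libraries were far below the other 9, and the A375 groups were close without overlapping. BID fell by 1.94 ± 0.07 in SKMel28 (adjusted p = 3.18e-27), against a value of 0.10 in A375 (95% interval -0.02 to 0.22, adjusted p = 0.164). The difference between the lines was 2.04 (adjusted p = 3.69e-23).

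BAD, whose protein is inactivated by phosphorylation downstream of growth factor signalling, did not pass the test in either line. Its level was 53.1, 58.7 and 50.04 CPM in resistant A375 libraries, against 58.2, 53.6 and 56.2 CPM in sensitive ones. In SKMel28 it was 17.0, 19.1 and 21.0 CPM in resistant libraries, against 18.7, 17.7 and 20.4 CPM in sensitive ones. Groups overlapped in both lines, and the 95% intervals of the log2 fold change were -0.18 to 0.07 in A375 (adjusted p = 0.499) and -0.15 to 0.16 in SKMel28 (adjusted p = 0.949). GPR137, on the other strand, shares 23.7% of the BAD exon bases and averaged 35.3, 44.1, 22.4 and 22.6 CPM in the 4 groups, in the order given for ABALON.

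BAK1, the pore-forming effector, did not pass the test in either line, and its groups overlapped in both. Resistant A375 libraries had 34.9, 34.0 and 35.7 CPM, against 34.0, 33.7 and 36.0 CPM in sensitive A375 libraries. Resistant SKMel28 libraries had 28.01, 27.0 and 27.0 CPM, against 30.8, 29.8 and 27.1 CPM in sensitive SKMel28 libraries. The 95% intervals were -0.11 to 0.13 in A375 (adjusted p = 0.890) and -0.22 to 0.03 in SKMel28 (adjusted p = 0.173).

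**Figure D2:**
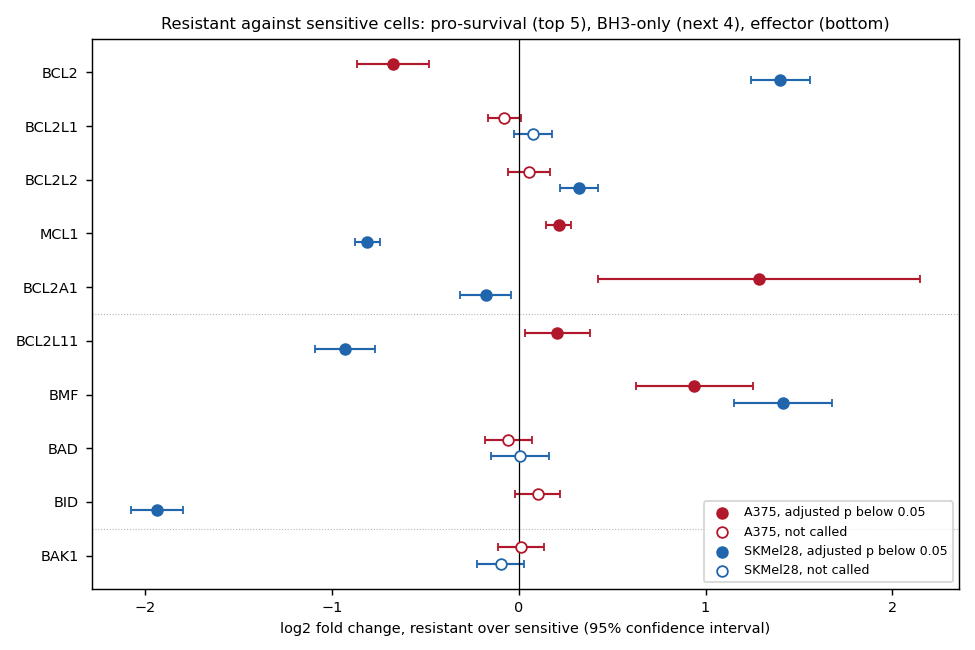
Log2 fold change of each gene in resistant over sensitive cells with its 95% interval, A375 in red above SKMel28 in blue, filled where the adjusted p was below 0.05. BCL2, MCL1, BCL2A1 and BCL2L11 have filled points on opposite sides of 0, BMF has both on the right, and BID reaches -1.94 in SKMel28.

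The change under resistance differed between the lines for 8 of the 10 genes, all but BAD (-0.06, adjusted p = 0.613) and BAK1 (0.11, adjusted p = 0.285). That count has to be set beside the 63.8% of all tested genes called in the same test. Besides the values given above, BCL2L2 differed by -0.27 (adjusted p = 0.00201) and BCL2A1 by 1.46 (adjusted p = 0.00301). The BCL2A1 difference rested on few A375 reads and was 0.94 without sensitive A375 replicate 1 (adjusted p = 0.0576).

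The lines were also compared with each other, where BCL2A1 is given as a description only, because it had few reads in A375. Among sensitive cells the other 9 genes all differed between A375 and SKMel28, with 4 higher in A375 (BCL2L1, MCL1, BAD and BAK1) and 5 lower, where 42.4% of all genes were called higher and 40.5% lower. BCL2A1 stood at -8.43 on the log2 scale in sensitive A375 over sensitive SKMel28 cells. BCL2L11 was lower in sensitive A375 cells, at -1.34 (adjusted p = 3.78e-19), as was BCL2L2, at -0.97 (adjusted p = 1.37e-20). BAD was 1.56 higher (adjusted p = 1.17e-23) and BCL2L1 1.5 higher (adjusted p = 1.17e-29) in sensitive A375 cells. MCL1 stood 0.73 above SKMel28 (adjusted p = 4.00e-24), and BAK1 0.24 above it (adjusted p = 4.88e-04). BMF (-0.98, adjusted p = 2.94e-07), BCL2 (-0.52, adjusted p = 7.71e-07) and BID (-0.31, adjusted p = 1.09e-05) were lower in sensitive A375 cells.

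Among resistant cells these 9 genes differed too, with 5 higher and 4 lower in A375, against 42.6% of all genes called higher and 42.7% called lower in A375. BID was now higher in A375, by 1.73 (adjusted p = 3.91e-26). The gap widened for MCL1 to 1.75 (adjusted p = 3.30e-38) and for BCL2 to -2.59 (adjusted p = 4.78e-29). BCL2A1 stood at -6.97, BMF at -1.45 (adjusted p = 6.32e-14) and BCL2L2 at -1.23 (adjusted p = 7.80e-25). BCL2L1 (1.34, adjusted p = 3.67e-28), BAD (1.5, adjusted p = 2.81e-23) and BAK1 (0.35, adjusted p = 1.90e-06) stayed higher in A375. For BCL2L11 the gap was -0.20 (adjusted p = 0.0255), a call that 10 of 17 alternatives lost and that scaling by library size alone turned to 0.01 (adjusted p = 0.897). The summed melanocyte markers differed between the lines in the same direction as BCL2A1, and their part in these differences was not tested.

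Levels of different genes can be set side by side only per length, so CPM was divided by the kilobases of exon of each gene. Exon bases shared with another gene were kept in the length. ABALON shares 43.0% of those of BCL2L1, GPR137 23.7% of BAD and BCL2L2-PABPN1 19.4% of BCL2L2. Their effect on the values per kb was not tested. By CPM per kb MCL1 led in resistant A375 (112.2), sensitive A375 (96.8) and sensitive SKMel28 cells (58.2). In resistant SKMel28 cells BCL2A1 led with 47.6 ± 2.18 CPM per kb, above MCL1 at 33.2 ± 0.578 (SD, n = 3 each), and in sensitive SKMel28 cells BCL2A1 at 53.8 ± 0.652 was second to MCL1 at 58.2 ± 0.451. BCL2, the gene with the largest rise in SKMel28 among the pro-survival genes, reached only 3.12 CPM per kb there.

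As shares of the summed CPM per kb of the 5 pro-survival genes, the resistant and sensitive cells of the 2 lines had different make-ups. MCL1 held 72.6% ± 0.43 in resistant A375 cells and 68.9% ± 0.84 in sensitive A375 cells, where BCL2L1 came next with 20.4% ± 0.16 and 23.7% ± 0.85. BCL2A1 held 39.8% ± 1.6 in resistant SKMel28 cells and 37.5% ± 0.42 in sensitive SKMel28 cells, and MCL1 held 27.8% ± 0.63 and 40.6% ± 0.35 there (SD, n = 3 each). The share of BCL2L2 was 19.4% ± 1.1 in resistant SKMel28 cells and 12.9% ± 0.68 in sensitive ones. BCL2 held 2.61% ± 0.16 of the pro-survival sum in resistant SKMel28 cells, against 0.824% ± 0.030 in sensitive SKMel28 cells.

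Among the 4 chosen BH3-only genes BAD had the largest share in all groups, 72.9% ± 1.9 in resistant and 75.8% ± 1.1 in sensitive A375 cells. In SKMel28 BAD held 60.5% ± 2.4 in resistant and 41.9% ± 1.0 in sensitive cells, although its CPM was alike in both. BID accounted for 14.6% ± 1.2 of the BH3-only sum in resistant SKMel28 cells and 38.9% ± 1.1 in sensitive ones. BMF took 12.8% ± 0.57 of the sum in resistant SKMel28 cells and 3.32% ± 0.41 in sensitive ones. The pro-survival sum exceeded the BH3-only sum 6.52 ± 0.42 times in resistant and 5.43 ± 0.26 times in sensitive SKMel28 cells, and 3.58 ± 0.21 times in resistant and 3.25 ± 0.14 times in sensitive A375 cells. With the longest transcript as the length these ratios were 5.05, 3.89, 2.70 and 2.47, in the same order. BID then led the BH3-only sum in sensitive SKMel28 cells with 44.7%, ahead of BAD at 39.8%. The BH3-only sum holds only these 4 genes and leaves out others such as PMAIP1, BBC3 and BIK, which would lower the ratios and the shares. In sensitive SKMel28 cells PMAIP1 averaged 30.9 CPM with 2235 exon bases, against 18.9 CPM with 1708 exon bases for BAD. The shares and ratios are of transcripts and were not tested.

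**Figure D3:**
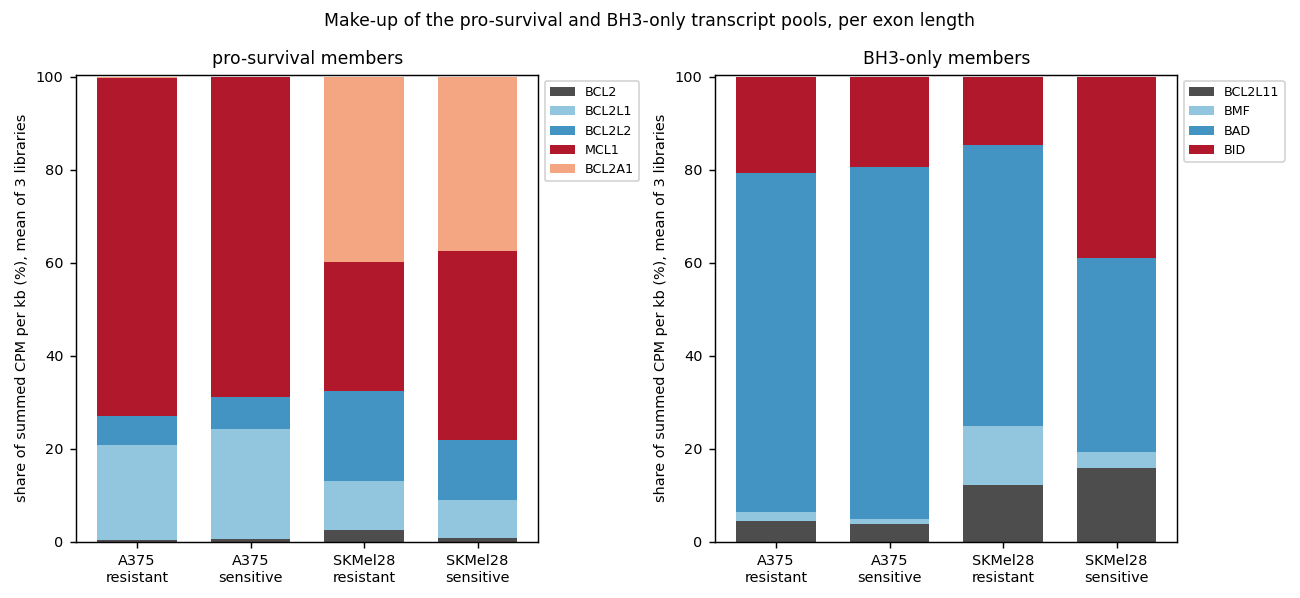
Share (%) of each gene in the summed CPM per kb of the 5 pro-survival genes (left) and the 4 BH3-only genes (right), mean of 3 libraries per group. MCL1 fills 72.6% and 68.9% of the A375 bars, whereas BCL2A1 fills 39.8% and 37.5% of the SKMel28 bars in resistant and sensitive cells.

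Whether a gene moved with its surroundings on the chromosome was read from up to 25 expressed genes on each side. These spanned from 2.41 megabases (BAD in A375) to 29.2 megabases (BCL2 in SKMel28), so the surroundings were not equally local. For BID in SKMel28, 33 neighbours had a median log2 fold change of -0.02 (quartiles -0.23 and 0.42), against its own -1.94. The BMF neighbours had medians of 0.13 in A375 and 0.11 in SKMel28, and those of BCL2L11 had 0.05 and -0.08. BMF lay outside the quartiles of its neighbours in both lines and BCL2L11 and BID in SKMel28. In A375 BCL2L11 lay within them (-0.14 and 0.33), as did BID (-0.10 and 0.20). Many neighbours lie outside the quartiles by definition, so such a place is common. MCL1 and BCL2 were outside in both lines, and BCL2A1 and BCL2L1 in A375. BAD, which was not called, was outside in SKMel28, at 0.01 against a median of -0.29 (quartiles -0.52 and -0.05). BCL2 in SKMel28 rose by 1.40, and its neighbours on chromosome 18 had a median of 0.34 with quartiles of 0.04 and 0.69. The MCL1 neighbours had a median of -0.06 in A375 and -0.18 in SKMel28. BCL2L1 stood in a region of lower values in resistant A375 cells. There 50 neighbours on chromosome 20 had a median of -0.51 (quartiles -0.63 and -0.39), against -0.08 for BCL2L1 itself, and the median was -0.56 with 10 genes on each side. A copy number of these regions was not measured, and its part was not tested.

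**Figure D4:**
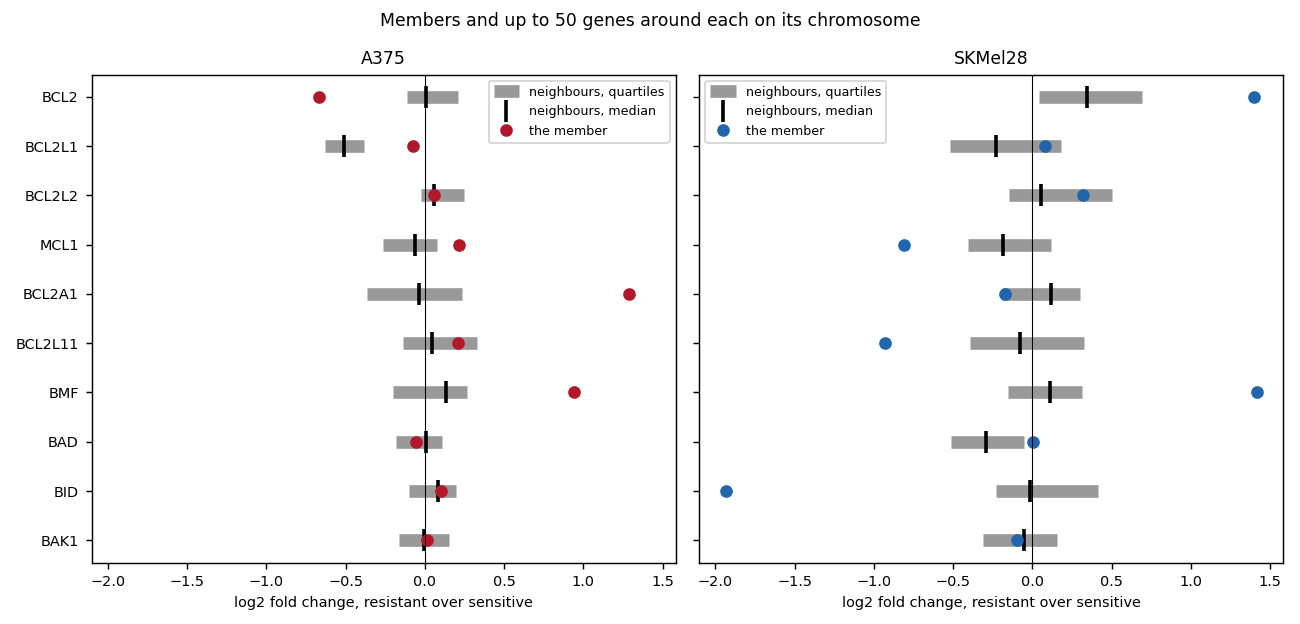
Log2 fold change (resistant over sensitive) of each gene (dot) with the median (line) and quartiles (grey bar) of up to 50 expressed genes around it, A375 left and SKMel28 right. BID in SKMel28 lies at -1.94 against a neighbour median of -0.02, and BCL2L1 in A375 lies right of neighbours whose median is -0.51.

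Promoter windows of the 10 genes, where available, were all searched for the same short strings of letters. The RefSeq table for GRCh38.p14 held 15 windows of 250 bases before the transcript start for 8 of the 10 genes. The E-box forms CATGTG and CACGTG, which MITF can bind, were searched on both strands. They occurred in 15.2% of all 35116 windows, and in 4 windows of the 10 genes, 1 of BCL2A1 and 3 of BID. The BID windows chr22:17773984-17774233 and chr22:17774043-17774292 overlap and hold the same CACGTG, which is thus counted in both. The FOXO core GTAAACA occurred in 2.98% of all windows and in 1 window of BCL2L11. The AP-1 site TGANTCA occurred in 6.57% of all windows and in none of these 15. The windows below are shown because BCL2A1 differed most between the lines and BID and BCL2L11 fell most in SKMel28, with the match in capitals. They lie at chr15:79971197-79971446 on the minus strand (BCL2A1), chr22:17773984-17774233 on the minus strand (BID) and chr2:111120664-111120913 on the plus strand (BCL2L11). The matches begin 25 bases, 106 bases and 223 bases before the start. A match is a string of letters and not a site shown to be used.

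BCL2A1: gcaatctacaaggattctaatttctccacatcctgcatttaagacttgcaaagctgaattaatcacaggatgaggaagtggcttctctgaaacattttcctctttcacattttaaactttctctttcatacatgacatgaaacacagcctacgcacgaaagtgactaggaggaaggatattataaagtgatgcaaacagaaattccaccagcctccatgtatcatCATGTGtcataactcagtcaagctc

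BID: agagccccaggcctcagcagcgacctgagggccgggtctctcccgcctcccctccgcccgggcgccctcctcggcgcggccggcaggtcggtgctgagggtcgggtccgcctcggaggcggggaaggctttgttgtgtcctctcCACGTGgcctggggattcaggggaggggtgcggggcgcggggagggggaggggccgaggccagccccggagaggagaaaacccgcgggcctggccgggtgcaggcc

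BCL2L11: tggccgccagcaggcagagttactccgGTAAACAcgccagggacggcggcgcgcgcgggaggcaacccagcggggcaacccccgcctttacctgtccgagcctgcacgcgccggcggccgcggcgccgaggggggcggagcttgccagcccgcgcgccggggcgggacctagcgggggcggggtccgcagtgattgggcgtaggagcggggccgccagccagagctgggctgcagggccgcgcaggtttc

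Of 15 transcription factors known to act on these genes, 6 rose and 5 fell in resistant A375 cells (median log2 fold change 0.07, against 0 over all genes), and 3 rose and 9 fell in resistant SKMel28 cells (median -0.19, against -0.01). Of all genes tested, the shares called higher and lower were 25% and 26.3% in A375 and 34.2% and 35.8% in SKMel28. MITF averaged 31.0 CPM in resistant and 39.6 CPM in sensitive A375 cells (-0.36, adjusted p = 6.89e-09), and 807 CPM in resistant and 508 CPM in sensitive SKMel28 cells (0.67, adjusted p = 3.34e-21). MITF and BCL2 thus had the same direction in each line, though the BCL2 window held no E-box match. BCL2A1 had the opposite direction to MITF in each, at 1.29 in A375 and -0.18 in SKMel28, by calls that 1 library decided. BID, with E-box matches, was at 0.10 in A375, where it was not called, and at -1.94 in SKMel28. The part of MITF in these changes was not tested. FOXO3, which is known to drive BCL2L11 and BMF, did not pass the test in A375 (adjusted p = 0.356) or SKMel28 (adjusted p = 0.900). Its relative FOXO4 fell by 1.30 in SKMel28 (adjusted p = 7.42e-13) and was at 0.20 in A375 (adjusted p = 0.111). The stress factor DDIT3 fell by 1.10 in SKMel28 (adjusted p = 2.02e-14) and rose by 0.43 in A375 (adjusted p = 2.59e-04). The cell cycle factor E2F1 fell by 0.75 in A375 (adjusted p = 5.34e-17) and by 0.23 in SKMel28 (adjusted p = 2.96e-05). The p53 relative TP73 fell by 1.37 in A375 (adjusted p = 1.38e-15) and rose by 0.25 in SKMel28 (adjusted p = 0.00934). The AP-1 subunit JUN rose by 0.55 in A375 (adjusted p = 7.55e-13) and fell by 0.25 in SKMel28 (adjusted p = 3.77e-05).

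The other members of the family were followed beside these 10. Of 12, 9 had enough reads to be tested, all but BCL2L10, BCL2L14 and BCL2L15. In resistant A375 cells 6 rose and 0 fell (median 0.32), and in resistant SKMel28 cells 3 rose and 4 fell (median 0.08), beside 25% and 26.3% of all genes in A375 and 34.2% and 35.8% in SKMel28. BAX, the effector partner of BAK1, had 157, 158 and 154 CPM in resistant A375 libraries, against 108, 110.6 and 111 CPM in sensitive ones. In SKMel28 BAX had 29.6, 32.7 and 33.3 CPM in resistant libraries, against 51.6, 53.9 and 58.2 CPM in sensitive ones. BAX thus rose by 0.51 in A375 (adjusted p = 1.46e-13) and fell by 0.78 in SKMel28 (adjusted p = 1.07e-17), a difference of 1.28 (adjusted p = 7.03e-21) that BAK1 did not show.

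Both p53-inducible BH3-only genes, PMAIP1 (NOXA) and BBC3 (PUMA), had the same pattern as BAX. PMAIP1, whose protein binds MCL1 and A1 in particular, averaged 55.9 CPM in resistant and 36.6 CPM in sensitive A375 cells (0.61, adjusted p = 4.13e-11). In SKMel28 PMAIP1 averaged 14.3 CPM in resistant and 30.9 CPM in sensitive cells (-1.11, adjusted p = 1.64e-17). BBC3 rose by 0.64 in A375 (adjusted p = 5.17e-06) and was -0.48 in SKMel28 (adjusted p = 0.00366), where its groups overlapped. BIK, a BH3-only gene of the endoplasmic reticulum, fell to 0.375 CPM in resistant SKMel28 cells, against 3.64 CPM in sensitive ones (-3.27, adjusted p = 2.77e-15), with a value of -0.12 in A375 (adjusted p = 0.583). HRK averaged 5.11 CPM in resistant and 2.12 CPM in sensitive SKMel28 cells (1.26, adjusted p = 3.08e-06), and few reads in A375 (0.27, adjusted p = 0.704). BOK, a BAX-like gene, rose in A375 by 0.57 (adjusted p = 4.81e-08), with 0.08 in SKMel28 (adjusted p = 0.304). The mitophagy receptors BNIP3 and BNIP3L rose in both lines, by 0.14 (adjusted p = 0.00416) and 0.32 (adjusted p = 1.01e-07) in A375 and by 0.43 (adjusted p = 5.66e-11) and 0.24 (adjusted p = 4.28e-06) in SKMel28. BCL2L13, which lies beside BID on chromosome 22, had 0.07 in A375 (adjusted p = 0.182) and 0.08 in SKMel28 (adjusted p = 0.0572), where BID was at -1.94.

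Of the 12 death receptor and adaptor genes, which act upstream of BID, 8 were tested. In resistant A375 cells 4 rose and 2 fell (median 0.13), and in resistant SKMel28 cells 2 rose and 5 fell (median -0.33), beside 25% and 26.3% of all genes in A375 and 34.2% and 35.8% in SKMel28. TNFRSF10B, the TRAIL receptor DR5, had 0.276, 0.252 and 0.146 CPM in resistant SKMel28 libraries, against 76.3, 69.8 and 69.2 CPM in sensitive SKMel28 libraries. Its log2 fold change was -8.30 in SKMel28 (adjusted p = 4.14e-43) and 0.36 in A375 (adjusted p = 9.06e-10). FAS, another death receptor, rose in both lines, by 1.11 in A375 (adjusted p = 2.03e-15) and 2.43 in SKMel28 (adjusted p = 1.48e-21). The adaptor TRADD rose by 0.64 in A375 (adjusted p = 3.24e-07) and fell by 1.06 in SKMel28 (adjusted p = 2.43e-13).

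All 18 genes of the apoptosome, the caspases and their inhibitors were tested. In resistant A375 cells 7 rose and 3 fell (median 0.07), and in resistant SKMel28 cells 7 rose and 7 fell (median -0.01), beside 25% and 26.3% of all genes in A375 and 34.2% and 35.8% in SKMel28. CYCS, encoding the cytochrome c that leaves the mitochondria once BAX and BAK1 have opened them, averaged 333 CPM in resistant and 266 CPM in sensitive A375 cells (0.32, adjusted p = 5.58e-09). In SKMel28 CYCS averaged 331 CPM in resistant and 564 CPM in sensitive cells (-0.77, adjusted p = 2.69e-20). BIRC3, an inhibitor of apoptosis, rose by 1.51 in A375 (adjusted p = 2.66e-14) and fell by 0.95 in SKMel28 (adjusted p = 1.96e-05), and BIRC5 (survivin) rose by 0.21 (adjusted p = 4.45e-06) and fell by 0.46 (adjusted p = 6.63e-15). CFLAR, which blocks caspase 8, rose by 0.56 in A375 (adjusted p = 1.27e-10) and was at 0.11 in SKMel28 (adjusted p = 0.0685).

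Proteins of this family are also controlled after translation, and 18 genes for their turnover and phosphorylation were listed. In resistant A375 cells 4 rose and 4 fell (median 0.01), and in resistant SKMel28 cells 8 rose and 6 fell (median 0.04), beside 25% and 26.3% of all genes in A375 and 34.2% and 35.8% in SKMel28. RPS6KA1, the kinase RSK1 that acts below ERK and can phosphorylate BAD and BIM, averaged 49.8 CPM in resistant and 94.7 CPM in sensitive A375 cells (-0.93, adjusted p = 9.56e-19). In SKMel28 RPS6KA1 averaged 23.9 CPM in resistant and 44.5 CPM in sensitive cells (-0.90, adjusted p = 5.07e-17). PIM3, a kinase of BAD, fell in both lines, by 0.29 in A375 (adjusted p = 1.64e-07) and 0.59 in SKMel28 (adjusted p = 8.43e-17). RPS6KA3 (RSK2) fell by 0.68 in A375 (adjusted p = 1.70e-17) and was 0.10 higher in resistant SKMel28 cells (adjusted p = 0.0448), where its groups overlapped. BTRC, the ubiquitin ligase subunit that recognises phosphorylated BIM, rose by 1.03 in SKMel28 (adjusted p = 2.08e-17) and was at 0.04 in A375 (adjusted p = 0.657).

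**Figure D5:**
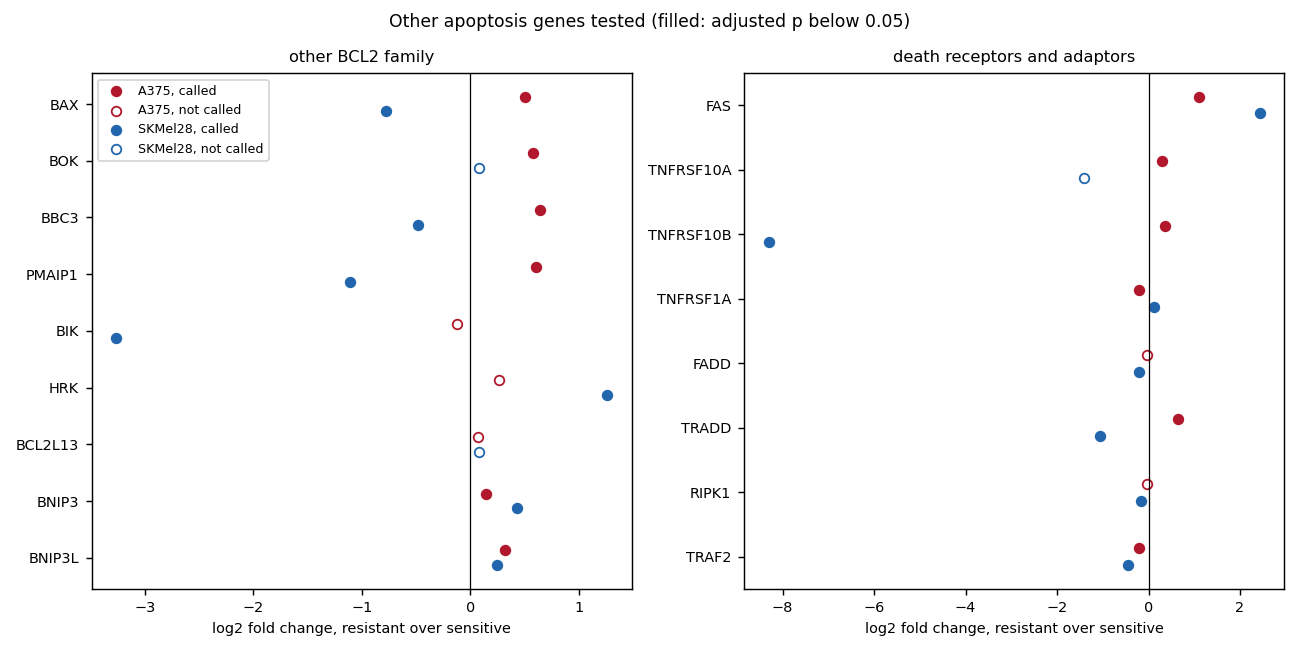
Log2 fold change (resistant over sensitive) of the tested genes of the other BCL2 family and of the death receptors and adaptors, A375 in red and SKMel28 in blue, filled where the adjusted p was below 0.05. BAX, BBC3 and PMAIP1 lie right of 0 in A375 and left of it in SKMel28, and TNFRSF10B reaches -8.30 in SKMel28.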

How the data were processed

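Poly(A)-selected RNA of 12 libraries was sequenced, per the labels' protocols. The authors deposited unnormalized counts, whole numbers for each of 26499 gene symbols, and these were used unchanged. HISAT2, StringTie and GRCh38.p12 appear in the submitters' processing notes, but the names of the deposited files point to STAR and unstranded counting, so which aligner made the counts is not settled. Between 15.1% and 19.5% of counted reads were in the files' summary lines and not assigned to a gene, and were left out. Intervals and p-values rest on reads without molecular identifiers.

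Genes were filtered with filterByExpr (15506 left), scaled by TMM and fitted with edgeR 4.0.16 (robust quasi-likelihood, R 4.3.3) in 1 model of 4 group means with 8 residual degrees of freedom. P-values are two-sided and Benjamini-Hochberg adjusted over all tested genes, and a gene was called below 0.05. The common coefficient of variation was 4.2%. CPM values are counts over the TMM-scaled library size. Lengths, positions and overlaps came from GENCODE release 29 (GRCh38), which placed 93.9% of the tested genes, and neighbours had at least 2 CPM. Promoter windows came from RefSeq (GRCh38.p14). Libraries of a group differed by more than sampling noise (chi-square per degree of freedom 2.77 to 7.14).

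Named beyond the 10 genes were all tested genes of the other BCL2 family list and up to 3 called genes of smallest adjusted p per other list and line, with FOXO3, chosen after its values were seen. Of the genes so chosen, 1 is not reported here. Genes and lists were chosen with earlier results of these data known.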

Additional observations from a re-analysis of the deposited data

Results flagged for a closer look

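The resistant-minus-sensitive change differed between A375 and SKMel28 for 8 of the 10 genes, each by the test of the difference itself (edgeR interaction contrast, Benjamini-Hochberg adjusted over all tested genes). The A375 change minus the SKMel28 change was -2.07 for BCL2, with all resistant A375 libraries below the sensitive ones and all resistant SKMel28 libraries above them. For BID it was 2.04, for BCL2L11 1.14 and for MCL1 1.02, with adjusted p-values of 3.69e-23, 1.99e-11 and 5.28e-23. BCL2A1 differed by 1.46, a value that includes A375 libraries of 2 to 20 reads. The smaller differences were -0.27 for BCL2L2, -0.48 for BMF and -0.16 for BCL2L1, with adjusted p-values of 0.00201, 0.0396 and 0.0387. The BMF and BCL2L1 calls were each lost in 12 of 18 alternatives, and the BCL2A1 call without sensitive A375 replicate 1 (adjusted p = 0.0576). The same test called 63.8% of all genes.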

How the results depend on the processing

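Of the values of the 10 genes under the alternative settings, those comparing resistant with sensitive cells kept their direction and call in 182 cases in A375 (5 lost the call, 3 reversed) and in 184 in SKMel28 (3 lost, 3 reversed). The difference between lines kept 152 (25 lost, 3 reversed), sensitive lines 170 (0 lost) and resistant lines 160 (9 lost, 1 reversed). The values that reversed were near 0. Leaving out 1 library at a time, BAD ran from -0.088 to 0.032 in A375 (above 0 without resistant replicate 3), from -0.067 to 0.085 in SKMel28 (below 0 without resistant replicate 3 or sensitive replicate 2) and from -0.14 to 0.015 for the difference (above 0 without resistant replicate 3 of either line). BAK1 in A375 then ran from -0.0095 to 0.064 (below 0 without sensitive replicate 1 or 2). With library-size scaling BAD was -0.028 in SKMel28 and 0.0032 for the difference. BCL2L11 between resistant lines was 0.012 with library-size scaling, which moves the median of all genes between lines to 0.23 in resistant and 0.18 in sensitive cells, against 0.01 and 0.03 with TMM. With the 6 A375 libraries alone, where 14510 genes passed the filter and all 10 were tested, 3 genes were called (2 higher), against 5 (4 higher). Leaving out 1 library at a time gave 4 to 5 calls in A375, 6 to 7 in SKMel28 and 5 to 8 for the difference. The lowest, 5, came without A375 sensitive replicate 1, and the cause of neither drop was tested. Libraries of the same replicate number in resistant and sensitive cells deviated together weakly at most (correlations from -0.0024 to 0.0471). For different numbers the correlations ran from -0.0422 to 0.0161. In SKMel28 each same-number value was the highest for its resistant library, so whether the numbers pair libraries is not settled. The replicate block left the counts at 5, 7 and 8. Depth limits BCL2A1 in A375, with 42 reads over the resistant and 17 over the sensitive libraries.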
